A study of Mus musculus with 33 samples.

Results

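To follow the passage from an epithelial to a mesenchymal state in differentiating embryonic stem (ES) cells, 10 genes were taken by symbol from the expression table: Cdh1, Epcam and Esrp1 of epithelial cells, Cdh2 and Vim of mesenchymal cells, and the transcription factors Snai1, Snai2, Zeb1, Zeb2 and Twist1. All 10 were found among the 16336 genes of the table. RNA had been sequenced from the mouse ES line E14Tg2a (wild type, strain 129/Ola) and from ΔK9.1 and ΔK9.2, which are E14Tg2a derivatives homozygous for a CRISPR/Cas9 deletion of the stretch between the Nanog enhancer and promoter that carries tri-methylation of histone H3 lysine 9. Each line was sampled undifferentiated in serum with LIF (day 0) and on days 4, 6 and 8 of embryoid body (EB) differentiation, which gives 12 groups and 33 libraries, with 3 replicates per group and 2 (replicates 2 and 3) on day 6. The EBs grew in suspension without LIF until day 4 and were then replated on gelatin, so the libraries of days 6 and 8 come from attached outgrowths. Each deletion line is 1 clone and the wild type is 1 line, so p-values measure the spread between assays of these 3 lines.

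Epithelial cells are held together by E-cadherin (Cdh1), which binds its like on the next cell and is anchored to actin by catenins. In epithelial-mesenchymal transition (EMT) the zinc-finger repressors of the Snail and Zeb families and the helix-loop-helix factor Twist1 lower epithelial genes, N-cadherin (Cdh2) takes the place of E-cadherin, and vimentin (Vim) filaments are laid down. In the embryo the transition takes place when epiblast cells leave the primitive streak as mesoderm. ES cells are themselves epithelial, with E-cadherin at their contacts.

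Snail and Zeb proteins are known to bind the E-box letters CAGGTG, which read CACCTG on the other strand. Both spellings were searched in the 250 bases before each RefSeq start (GRCm38.p6). Of the 5 members with a promoter entry, Epcam held 2 such letters, 187 and 19 bases before its start, Snai1 held 1 at 126 bases, and Vim, Twist1 and Zeb2 held none. At least 1 was held by 17.2% of all 32851 RefSeq promoters. The Vim window lies within the gene as GENCODE annotates it. The upstream sequences of an epithelial gene with 2 E-boxes, a factor with 1 and a factor with none are shown to let them be compared. They lie on the plus strand at chr17:87635729-87635978, chr2:167537945-167538194 and chr12:33957421-33957670, and capitals mark the E-box letters:
Epcam: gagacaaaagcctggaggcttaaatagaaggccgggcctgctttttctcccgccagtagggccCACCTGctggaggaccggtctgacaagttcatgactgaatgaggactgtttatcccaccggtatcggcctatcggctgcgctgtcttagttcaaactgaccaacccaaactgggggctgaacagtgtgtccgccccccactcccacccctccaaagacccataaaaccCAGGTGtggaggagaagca
Snai1: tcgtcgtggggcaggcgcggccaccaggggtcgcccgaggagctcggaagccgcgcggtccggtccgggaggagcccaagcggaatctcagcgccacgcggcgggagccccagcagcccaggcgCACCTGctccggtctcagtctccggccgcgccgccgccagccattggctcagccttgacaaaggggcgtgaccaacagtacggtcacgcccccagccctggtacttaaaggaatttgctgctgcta
Twist1: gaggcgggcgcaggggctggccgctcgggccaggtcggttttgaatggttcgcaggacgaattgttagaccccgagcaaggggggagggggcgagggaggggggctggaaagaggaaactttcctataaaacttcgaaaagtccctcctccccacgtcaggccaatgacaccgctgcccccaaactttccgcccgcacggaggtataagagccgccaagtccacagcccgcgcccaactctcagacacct
These matches describe letters in a window and no binding was measured. Cdh1, Cdh2, Esrp1, Snai2 and Zeb1 had no entry in the set of promoters that was searched, so their starts were not examined.

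In the mm10 annotation (GENCODE M21), Vim lies at chr2:13573927-13582826, Zeb2 at chr2:44983632-45117395, Snai1 at chr2:167538195-167542814, Esrp1 at chr4:11331933-11386783, Cdh1 at chr8:106603351-106670246, Twist1 at chr12:33957671-33959829, Snai2 at chr16:14705852-14709385, Epcam at chr17:87635979-87651129, Zeb1 at chr18:5591860-5775467 and Cdh2 at chr18:16588877-16809246. All 10 are annotated as protein-coding genes, and the measured values are sums over the transcripts of each gene.

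The values are TPM, transcript levels corrected for length and scaled to 1 fixed total in each library, which sum to between 994284 and 998266 over the listed genes of a library and keep no read depth. Nanog, the gene beside the deletion, was higher in all clone libraries than in all E14Tg2a libraries on days 0, 6 and 8, and on day 8 reached 34.6, 23.7 and 21.97 TPM in E14Tg2a against 70.6, 49.3 and 177 TPM for ΔK9.1 and 118, 69.9 and 126 TPM for ΔK9.2. The deleted stretch lies outside the transcript, so the Nanog level does not check the deletion itself. Of 8 pluripotency markers, all 8 fell between day 0 and day 8 in each line. Replicate 3 of ΔK9.1 stood apart from the other ΔK9.1 libraries on days 6 and 8, with summed pluripotency markers of 1627 TPM on day 8 against 769 and 719 TPM. Values without it are given beside several of the differences of days 6 and 8. Replicate 1 of E14Tg2a on day 0 summed to 214 TPM over 12 extra-embryonic endoderm markers against 19.6 and 23.1 TPM in replicates 2 and 3. Replicate 1 also held the highest such sum in both clones on day 0 and in every line on day 4. In ΔK9.2 it held 104 TPM on day 0 against 21.3 and 20.1 TPM, and 260 TPM on day 4 against 28.1 and 28.5 TPM. On day 8 this was not so in the clones. Day 6 has no replicate 1, so changes to or from day 6 compare different sets of replicates.

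Cdh1 in E14Tg2a stood at 123, 117 and 99.9 TPM in replicates 1 to 3 of day 0, at 165, 201 and 197 TPM on day 4, at 72.8 and 91.5 TPM on day 6 and at 48.1, 40.1 and 31.6 TPM on day 8. All day 4 libraries were above all day 0 libraries, and the libraries of days 6 and 8 were below them. The day 4 difference was 0.72 ± 0.25 (SE) on the log2 scale with an adjusted p of 0.0353 and stayed under the threshold of 1 log2 unit that a call needed together with an adjusted p below 0.05. The fall by day 8 was called (log2 fold change -1.50 ± 0.25 (SE), adjusted p = 1.45e-05, limma with Benjamini-Hochberg adjustment over all genes). Fold changes here and below are on log2(TPM + 1), which understates the change of low genes.

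Epcam, a calcium-independent adhesion molecule of epithelia, rose in E14Tg2a from 116, 73.5 and 67.5 TPM on day 0 to 202, 147 and 179 TPM on day 4 (log2 fold change 1.06 ± 0.24 (SE), adjusted p = 0.00158). This lay close to the threshold, and the call was lost without replicate 2 or 3 of day 0 or replicate 1 of day 4, at 0.97, 0.91 and 0.95 on the log2 scale. Epcam then stood at 73.7 and 99.1 TPM on day 6 and 87.2, 52.8 and 69.5 TPM on day 8, a range that overlapped day 0. Esrp1, which directs the epithelial form of splicing, went from 10.1, 4.18 and 2.8 TPM on day 0 to 27.8, 25.2 and 28.2 TPM on day 4, 13.8 and 19.6 TPM on day 6 and 13.6, 7.82 and 9.89 TPM on day 8. Its rise by day 4 was called (log2 fold change 2.22 ± 0.31 (SE), adjusted p = 1.02e-05), as was that by day 6 (log2 fold change 1.53 ± 0.35 (SE), adjusted p = 0.000974). On day 8 it was not (log2 fold change 0.89 ± 0.31 (SE), adjusted p = 0.0158), the mean change lying under 1 log2 unit. Without replicate 1 of day 0, the library with the high endoderm sum, the day 8 value was called too (1.33, adjusted p = 0.000405), as it was without replicate 2 of day 8 or with a pseudocount of 0.1, and the day 6 call was lost in a fit of only the groups compared (adjusted p = 0.0697). All 3 epithelial genes thus had their highest mean on day 4 and stood lower afterwards, and Cdh1 was the one called below its ES cell level on day 8.

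Cdh2 in E14Tg2a stood at 1.72, 0.607 and 0.468 TPM on day 0, at 4.74, 6.41 and 6.28 TPM on day 4, at 87.3 and 85.2 TPM on day 6 and at 75.5, 65.3 and 43.5 TPM on day 8. The rise was already called on day 4 (log2 fold change 1.86 ± 0.42 (SE), adjusted p = 0.00188), while Cdh1 was near its highest level. Between day 4 and day 6 Cdh2 rose further by 3.69 ± 0.47 (SE) on the log2 scale, adjusted p = 7.17e-06, and between day 6 and day 8 it did not change detectably (log2 fold change -0.52 ± 0.47 (SE), adjusted p = 0.458).

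Vim went the other way at first. E14Tg2a libraries held 71.1, 85.5 and 79.3 TPM on day 0 and 20.9, 35.8 and 34.2 TPM on day 4, a fall of every library (log2 fold change -1.38 ± 0.36 (SE), adjusted p = 0.00548). On day 6 they held 429 and 297 TPM and on day 8 610.4, 1029.8 and 729.9 TPM, which made Vim the highest of the 10 genes at the end of the course. The rise from day 4 to day 6 was 3.55 ± 0.40 (SE) on the log2 scale, adjusted p = 1.34e-06, and that from day 6 to day 8 was 1.11 ± 0.40, adjusted p = 0.0426. The latter call was lost in 5 of 10 alternatives, with adjusted p up to 0.295 without replicate 3 of day 6.

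Snai1, Zeb2 and Twist1 were the transcription factors called by day 6 in E14Tg2a, and none of the 5 was called on day 4 in the fit of all libraries. Snai1 was listed at 3.71, 0.75 and 0.752 TPM on day 0 and 2.23, 1.43 and 1.75 TPM on day 4 in E14Tg2a, reached 41.03 and 32.3 TPM on day 6, and stood at 23.6, 24.5 and 17.4 TPM on day 8. The rise by day 6 was called (log2 fold change 3.94 ± 0.44 (SE), adjusted p = 1.31e-07). Both day 6 libraries lay above all 3 day 8 libraries, a difference that did not pass the test (log2 fold change -0.73 ± 0.44 (SE), adjusted p = 0.232).

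Snai2, its paralogue, had its main rise later. Its E14Tg2a libraries held 0.723, 0.298 and 0.283 TPM on day 0, 0.337, 0.443 and 0.172 TPM on day 4, 3.77 and 0.971 TPM on day 6 and 21.7, 67.3 and 42.9 TPM on day 8. Both day 6 libraries lay above all day 0 libraries, a difference that was not called (log2 fold change 1.11 ± 0.54 (SE), adjusted p = 0.105) but was with a pseudocount of 0.1 (2.02, adjusted p = 0.0254) or without replicate 3 of day 6 (1.75, adjusted p = 0.0487). The change from day 6 to day 8 was called (log2 fold change 3.74 ± 0.54 (SE), adjusted p = 3.79e-05). The share of Snai2 in the summed Snai1 and Snai2 TPM was 8.41% and 2.92% in the E14Tg2a libraries of day 6 and 47.9%, 73.3% and 71.1% in those of day 8, so these libraries passed from almost all Snai1 to a mixture led by Snai2 in 2 of 3 replicates.

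Zeb1 was present in ES cells, at 3.95, 6.46 and 3.75 TPM, was lower on day 4, at 1.16, 2.3 and 1.74 TPM, and stood at 4.25 and 3.89 TPM on day 6 and 11.7, 18.8 and 9.34 TPM on day 8. Of these steps the day 4 difference was not called (log2 fold change -1.06 ± 0.44 (SE), adjusted p = 0.081), although it was with only the groups compared (adjusted p = 0.0408), and the rise from day 0 to day 8 was (log2 fold change 1.29 ± 0.44 (SE), adjusted p = 0.0147), though not without replicate 3 of day 0 (adjusted p = 0.053) or replicate 2 of day 8 (adjusted p = 0.0823). Zeb2 started lower, at 0.635, 0.452 and 1.34 TPM, held 0.293, 2.46 and 1.61 TPM on day 4 and rose to 8.52 and 10.2 TPM on day 6 and 12.5, 18.4 and 12.8 TPM on day 8. It was called on day 6 (log2 fold change 2.54 ± 0.35 (SE), adjusted p = 2.63e-06), when Zeb1 was not, and took 66.8% and 72.3% of the summed Zeb1 and Zeb2 TPM of that day.

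Twist1 went from 2.68, 1.38 and 1.5 TPM on day 0 and 3.64, 4.85 and 2.92 TPM on day 4 to 36.5 and 19.3 TPM on day 6 and 97.8, 71.2 and 38.3 TPM on day 8. It was called higher on day 6 (log2 fold change 3.30 ± 0.43 (SE), adjusted p = 1.3e-06) and rose again between day 6 and day 8 (log2 fold change 1.25 ± 0.43 (SE), adjusted p = 0.0339). This second rise was lost in 4 of 10 alternatives, among them leaving out replicate 3 of day 6 (0.80, adjusted p = 0.35), replicate 1 of day 8 (adjusted p = 0.128) or replicate 2 of day 8 (adjusted p = 0.0949). On day 8 it was the highest of the 5 factors by mean, at 69.1 ± 29.8 TPM (SD, n = 3), followed by Snai2 at 43.96 ± 22.8, Snai1 at 21.8 ± 3.85, Zeb2 at 14.6 ± 3.29 and Zeb1 at 13.3 ± 4.92 TPM. The libraries of neighbours in this order overlapped. The plot of TPM by day shows these courses beside those of the clones.

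**Figure D1:**
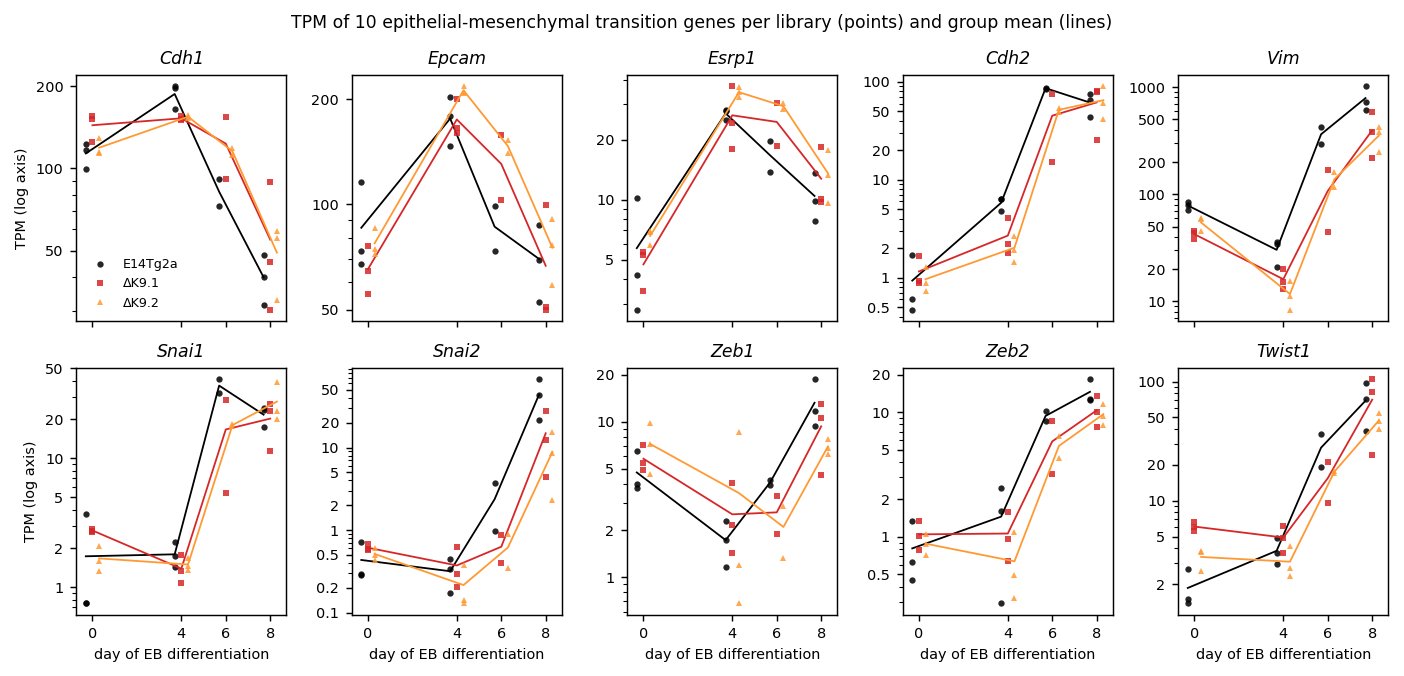
TPM (log axis) of the 10 genes against the day of EB differentiation, with 1 point per library and lines through the group means (black circles, E14Tg2a; red squares, ΔK9.1; orange triangles, ΔK9.2; n = 3, or 2 on day 6; points are offset sideways). Cdh1, Epcam and Esrp1 had their highest mean on day 4 in each line, Cdh2 and Snai1 had theirs on day 6 in E14Tg2a and on day 8 in both clones, and Snai2, Zeb2, Twist1 and Vim had theirs on day 8. For Snai1 in ΔK9.1 this order rests on replicate 3, without which it held 28.1 TPM on day 6 and 26.3 and 23.2 TPM on day 8.

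In E14Tg2a, 3 of the 10 genes were called higher on day 4 (Cdh2, Epcam and Esrp1) and 1 lower (Vim), against 3.67% of all 16336 genes called higher and 4.07% lower. On day 6, 6 were called higher (Cdh2, Esrp1, Vim, Snai1, Zeb2 and Twist1) and none lower, against 8.95% and 8.69% of all genes. On day 8, 7 were called higher, against 15.9% of all genes, and with Cdh1, which was lower, 8 were called in either direction, against 26.9%. The step from day 4 to day 6 held 7 calls, against 9.33% of all genes in either direction, and these were lower Cdh1 and Epcam and higher Cdh2, Vim, Snai1, Zeb2 and Twist1. Without replicate 2 of day 6 neither Cdh1 nor Epcam was called (adjusted p = 0.0785 and 0.132), and the Epcam call was also lost without replicate 1 of day 4 or with the assay number as a block (-0.92 and -0.94 on the log2 scale). The step from day 6 to day 8 held 5, against 9.26%, which were lower Cdh1 and higher Vim, Snai2, Zeb1 and Twist1. That last count fell to 1 in a fit restricted to the groups compared, and also without replicate 3 of day 6, to 2 without replicate 2 of day 8 and to 3 without replicate 2 of day 6 or replicate 3 of day 8.

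Most of these changes were also called in the clones. In ΔK9.1, 3 genes were called on day 4, against 5.39% of all genes, 5 on day 6, against 12.8%, and 8 on day 8, against 20.9%. In ΔK9.2 the counts were 4 on day 4, against 7.62%, 7 on day 6, against 17.5%, and 7 on day 8, against 22.2%. In both clones Epcam and Esrp1 rose and Vim fell by day 4, and by day 8 Cdh1 had fallen while Cdh2, Vim, Snai1, Snai2, Zeb2 and Twist1 had risen. Zeb1 was not called higher on day 8 in either clone (log2 fold change 0.52 ± 0.44 (SE), adjusted p = 0.351 in ΔK9.1, and log2 fold change -0.01 ± 0.44 (SE), adjusted p = 1.0 in ΔK9.2). In ΔK9.2 it was called lower on day 4 (log2 fold change -1.27 ± 0.44 (SE), adjusted p = 0.0298) and on day 6 (log2 fold change -1.40 ± 0.50 (SE), adjusted p = 0.0267). The day 4 call was lost in 6 of 11 alternatives, namely median ratio scaling, a fit of only the groups compared and leaving out replicate 2 or 3 of either day, with values from -2.04 to -0.79 over the alternatives. The day 6 call was lost in 3 of 10, without replicate 2 or 3 of day 0 or replicate 2 of day 6. The difference in the rise of Zeb1 between clones and wild type was not called (log2 fold change -1.04 ± 0.54 (SE), adjusted p = 0.266). The count of 5 in ΔK9.1 on day 6 fell to 3 without replicate 2 of that day or in a fit restricted to the groups compared, and rose to 6 without replicate 3.

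Cdh2, called in E14Tg2a by day 4, was not called by that day in ΔK9.1 (log2 fold change 0.74 ± 0.42 (SE), adjusted p = 0.196) or in ΔK9.2 (log2 fold change 0.61 ± 0.42 (SE), adjusted p = 0.286). Its libraries held 1.77, 4.1 and 2.18 TPM for ΔK9.1 and 1.46, 1.94 and 2.66 TPM for ΔK9.2, all below the lowest E14Tg2a library of that day, as was found for 5.95% of all genes. The direct test of clones against wild type on day 4, given below, did not call Cdh2 in the main fit. By day 6 Cdh2 was called in both (4.04 and 4.76 on the log2 scale, adjusted p = 7.34e-07 and 2.97e-08).

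The exchange of cadherins was then read in each library as log2((Cdh1 + 1)/(Cdh2 + 1)), in which a value of 0 means equal TPM. In E14Tg2a day 0 gave 5.52, 6.20 and 6.10, day 4 gave 4.85, 4.77 and 4.76, day 6 gave -0.26 and 0.10 and day 8 gave -0.64, -0.69 and -0.45. Put as a share, Cdh2 made up 1.37%, 0.516% and 0.467% of the summed Cdh1 and Cdh2 TPM at day 0, 2.8%, 3.09% and 3.1% at day 4, 54.5% and 48.2% at day 6 and 61.1%, 61.97% and 57.9% at day 8. Parity was thus met on day 6 and passed on day 8 in all 3 wild-type libraries.

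The switch values of ΔK9.1 were 6.34, 6.34 and 5.57 for day 0, 5.83, 4.90 and 5.57 for day 4, 0.28 and 3.28 for day 6 and -1.34, -0.83 and 1.75 for day 8. In ΔK9.2 it was 6.06, 6.11 and 5.66, 5.98, 5.72 and 5.43, 1.25 and 1.03 and -0.62, -0.88 and 0.38 on the same days. All 4 clone libraries of day 6 therefore kept more Cdh1 than Cdh2, with a Cdh2 share of 45.1% and 8.83% in ΔK9.1 and 29.4% and 32.7% in ΔK9.2, whereas on day 8 it was replicate 3 of each clone that kept a value above 0.

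The clones were compared with E14Tg2a as 6 against 3 libraries, and as 4 against 2 on day 6. The mean of the clone libraries exceeded that of the E14Tg2a libraries by 0.07 on day 0 (two-sided exact permutation test, p = 0.643), by 0.78 on day 4 (exact permutation p = 0.0238), by 1.54 on day 6 (exact permutation p = 0.133) and by 0.34 on day 8 (exact permutation p = 0.833). On day 4 all 6 clone libraries were above all 3 wild-type libraries, which gives the smallest p this design allows. With the assay number as a block, the day 4 test gave an exact p = 0.0741, again the smallest possible. The day 6 value is also the smallest possible with 2 against 4 libraries, and its difference became 0.93 without replicate 3 of ΔK9.1 (exact p = 0.2). On day 8 the difference turned to -0.06 without that replicate (exact p = 0.786), so its sign rests on 1 library. From day 0 to day 8 the switch value changed by -6.53 for E14Tg2a, -6.22 for ΔK9.1 and -6.32 for ΔK9.2, in each case with every day 8 library below every day 0 library (exact permutation p = 0.1, the smallest that 3 against 3 can give).

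**Figure D2:**
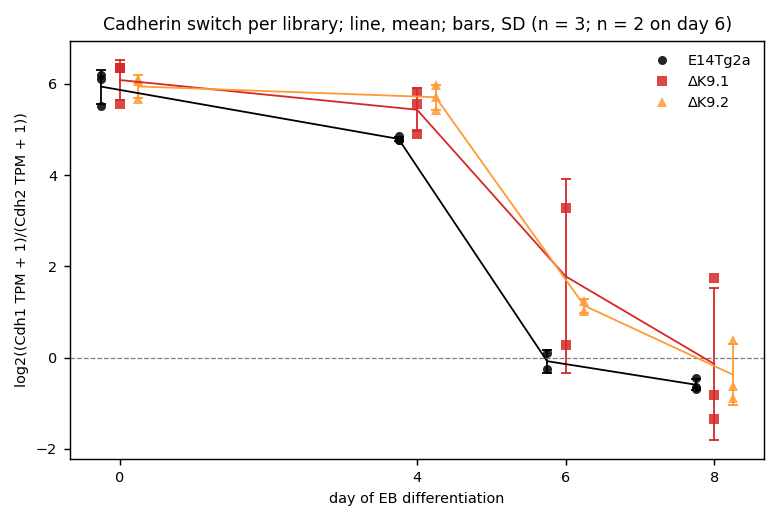
Cadherin switch, log2((Cdh1 TPM + 1)/(Cdh2 TPM + 1)), against the day of EB differentiation, with 1 point per library, lines through the group means and bars of 1 SD (n = 3, or 2 on day 6); the dashed line marks equal TPM. E14Tg2a was near 0 on day 6 at -0.26 and 0.10, where the 4 clone libraries lay between 0.28 and 3.28, and the 3 lines overlapped on day 8.

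On day 0 the clones were compared with E14Tg2a in a fit of the 9 undifferentiated libraries, in which 9 of the 10 genes reached 1 TPM in at least 1 line (Snai2 did not). Vim and Twist1 were called, 2 of 9, against 5.41% of the 14504 genes tested at an adjusted p below 0.05 and an absolute log2 fold change over 0.3. Vim was at 71.1, 85.5 and 79.3 TPM in E14Tg2a, 43.7, 45.5 and 37.98 TPM for ΔK9.1 and 60.3, 58.2 and 44.95 TPM for ΔK9.2, without overlap between wild type and clones (log2 fold change -0.70 ± 0.11 (SE), adjusted p = 0.0105). Twist1 was at 2.68, 1.38 and 1.5, 5.57, 6.06 and 6.59 and 2.58, 3.75 and 3.81 TPM in the same order of lines, higher in ΔK9.1 than in every wild-type library and overlapping in ΔK9.2 (log2 fold change 0.98 ± 0.18 (SE), adjusted p = 0.0166 for the mean of both clones).

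Taken clone by clone, both differences were called in ΔK9.1 (adjusted p = 0.00392 for Vim and 0.00451 for Twist1, limma) and neither in ΔK9.2 (adjusted p = 0.188 and 0.35). The difference in Twist1 between the clones was not called (log2 fold change -0.70 ± 0.20 (SE), adjusted p = 0.0994). Both calls were lost without E14Tg2a replicate 2 of day 0 (adjusted p = 0.0654 for Vim and 0.0863 for Twist1) or replicate 3 (0.0557 and 0.0828), and without replicate 1 Snai1 was called higher as well (log2 fold change 0.85, adjusted p = 0.0167). With all 33 libraries in the fit, neither Vim nor Twist1 passed (adjusted p = 0.226 and 0.0966).

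On day 4 none of the 10 genes was called by limma between clones and wild type, 2 having an unadjusted p below 0.05, against 2.80% of all genes called. Those were Vim (log2 fold change -1.08 ± 0.31 (SE), adjusted p = 0.0583) and Cdh2 (log2 fold change -1.06 ± 0.37 (SE), adjusted p = 0.132). With the assay number as a block the count rose to 1, Vim (adjusted p = 0.0207), and with a block within the day to 2, Vim (adjusted p = 0.0192) and Cdh2 (adjusted p = 0.0352). Vim was also called without replicate 3 of ΔK9.2 (adjusted p = 0.0466) or replicate 1 of E14Tg2a (adjusted p = 0.0371).

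The Vim libraries of day 4 held 20.9, 35.8 and 34.2 TPM in E14Tg2a, 15.3, 20.03 and 13.02 TPM for ΔK9.1 and 8.35, 11.2 and 15.6 TPM for ΔK9.2. Vim, Cdh2 and Cdh1 were each below all wild-type libraries in all 6 clone libraries, 3 of 10 genes against 5.95% of all genes with clones below and 1.63% above. Cdh1 there was 156, 152 and 150.0 TPM for ΔK9.1 and 154, 153 and 157 TPM for ΔK9.2, a small difference (log2 fold change -0.28 ± 0.22 (SE), adjusted p = 0.592). The 12 extra-embryonic endoderm markers summed to between 121 and 961 TPM in the E14Tg2a libraries of day 4 and between 6.89 and 260 TPM in the clones, with 9 of 12 called lower, against 2.80% of all genes called. The part of these markers in the cadherin and vimentin differences was not tested. In bulk RNA, fewer cells of a type and less RNA per cell cannot be told apart.

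On day 6, with 2 wild-type libraries against 4 of the clones, the sides did not overlap for 8 of 10 genes. Cdh1 and Epcam were higher in all clone libraries, against 12.8% of all genes with clones above. Cdh2, Vim, Snai1, Snai2, Zeb1 and Zeb2 were lower, against 19.6% with clones below. Some gaps were narrow, such as Cdh1 at 91.5 TPM in the nearest library of either side and Zeb2 at 8.525 TPM in wild type against 8.485 TPM in ΔK9.1.

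Only Vim was called on day 6, 1 of 10, against 3.82% of all genes (log2 fold change -1.70 ± 0.38 (SE), adjusted p = 0.00999), with 429 and 297 TPM in E14Tg2a, 170.1 and 44.7 TPM for ΔK9.1 and 116 and 160.1 TPM for ΔK9.2. Snai1 held 41.03 and 32.3 TPM in wild type against 28.1 and 5.36 TPM for ΔK9.1 and 17.7 and 18.5 TPM for ΔK9.2, a difference that missed the threshold (log2 fold change -1.21 ± 0.41 (SE), adjusted p = 0.102). The same was found for Cdh2 (log2 fold change -1.02 ± 0.45 (SE), adjusted p = 0.23) and Epcam (log2 fold change 0.67 ± 0.25 (SE), adjusted p = 0.138). With the assay number as a block 2 genes were called, Vim and Snai1 (adjusted p = 0.00272 and 0.0484), and with a block within the day 3, Vim, Snai1 and Epcam (adjusted p = 0.00356, 0.0281 and 0.0348).

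These day 6 values rest on 2 libraries per line. Without replicate 3 of ΔK9.1 the Vim difference was -1.22 and not called (adjusted p = 0.0663), and likewise without replicate 2 of E14Tg2a (-1.44, adjusted p = 0.278) or with only that day's groups in the fit (adjusted p = 0.216). Without replicate 3 of ΔK9.1 the Cdh2 difference also shrank to -0.46 and that of Snai1 to -0.67, neither called, and the members other than Vim ranged from -0.83 to 0.52. With replicate 3 of ΔK9.1 left out on both day 6 and day 8 it was called (adjusted p = 0.0243). Without replicate 2 of ΔK9.1 instead, Cdh2 and Snai1 were called lower (log2 fold changes -1.58 and -1.76, adjusted p = 0.0139 and 0.00249).

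By day 8 no difference was called for the cadherins or Snai1, while Vim and Snai2 were called lower in the clones. Cdh2 stood at 61.4 ± 16.3 TPM in E14Tg2a, 61.7 ± 31.2 TPM for ΔK9.1 and 64.98 ± 24.8 TPM for ΔK9.2 (mean ± SD, n = 3), and the interval of the difference ran from -0.79 to 0.72 on the log2 scale (log2 fold change -0.04 ± 0.37 (SE), adjusted p = 0.967). For Snai1 the difference was 0.06 ± 0.34 (SE), adjusted p = 0.934, for Cdh1 0.30 ± 0.22, adjusted p = 0.372, and for Twist1 -0.28 ± 0.33, adjusted p = 0.615. The 95% intervals of these differences ran from -0.63 to 0.75, from -0.15 to 0.74 and from -0.97 to 0.40, so a miss of the threshold does not show equal levels. Without replicate 3 of ΔK9.1 of day 8 the Cdh2 and Twist1 differences turned to 0.23 and 0.03 (adjusted p = 0.709 and 0.963), and both also changed sign without replicate 1 of E14Tg2a of that day. With replicate 3 of ΔK9.1 left out on days 6 and 8, the day 8 difference was 0.09 for Cdh1 and -1.69 for Snai2.

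The calls on day 8 were 2 of 10, which is near the 18.7% of all genes. Vim held 610.4, 1029.8 and 729.9 TPM in E14Tg2a, 379, 587 and 219 TPM for ΔK9.1 and 247, 426 and 385 TPM for ΔK9.2 (log2 fold change -1.12 ± 0.31 (SE), adjusted p = 0.012), again with all clone libraries below. It was the only member of 10 without overlap on that day, near the shares of 7.99% of all genes with clones below and 5.44% above. Vim was thus below the wild type in all clone libraries on each of the 4 days. For day 0 this compares with 2.75% of genes with clones below and 5.17% above, and the share of all genes below on all 4 days was not computed. Snai2 held 21.7, 67.3 and 42.9 TPM in E14Tg2a, 12.3, 28.04 and 4.39 TPM for ΔK9.1 and 2.35, 15.6 and 8.58 TPM for ΔK9.2, with 1 ΔK9.1 library above the lowest wild-type library (log2 fold change -2.00 ± 0.42 (SE), adjusted p = 0.00135).

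Its rise from day 0 to day 8 was smaller in the clones than in E14Tg2a by the test of the difference itself (log2 fold change -2.14 ± 0.59 (SE), adjusted p = 0.0296), the only member called, against 3.05% of all genes. For Vim that difference was -0.42 ± 0.44 (SE), adjusted p = 0.622, Vim being lower in the clones on day 0 too. For Twist1, higher in the clones on day 0, it was -1.27 ± 0.47, adjusted p = 0.105.

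The day 8 call of Vim was lost without replicate 2 of E14Tg2a (log2 fold change -0.91, adjusted p = 0.125). With only the day 8 groups in the fit neither Vim nor Snai2 passed (adjusted p = 0.101 and 0.133). The Snai2 difference in rise was lost without E14Tg2a replicate 2 or 3 of day 0 (adjusted p = 0.0766 and 0.0869) or of day 8 (0.145 and 0.0589), with a pseudocount of 0.1 (0.057) and with only the groups compared (0.108). For Twist1 the difference in rise was called without replicate 2 of ΔK9.1 of day 8 (adjusted p = 0.0381) or replicate 3 of E14Tg2a of day 8 (adjusted p = 0.0458). The estimates for days and for clones share the E14Tg2a libraries.

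**Figure D3:**
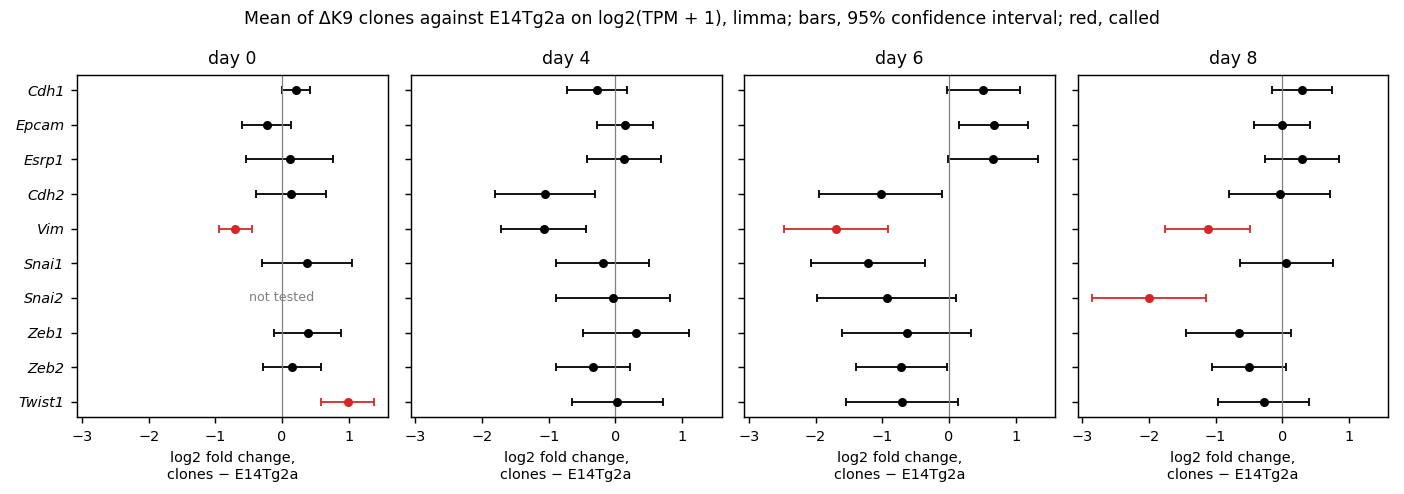
Log2 fold change of the mean of both ΔK9 clones against E14Tg2a for each gene and day on log2(TPM + 1), with 95% confidence intervals from limma; red marks an adjusted p below 0.05 with an absolute change over 0.3. The called genes were Vim at -0.70, -1.70 and -1.12 on days 0, 6 and 8, Twist1 at 0.98 on day 0 and Snai2 at -2.00 on day 8, and Snai2 was not tested on day 0.

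The shares of the 2 Snail genes on day 8 are given as a description, with no test. Snai2 took 31.9%, 54.7% and 27.8% of the summed Snai1 and Snai2 TPM for ΔK9.1 and 5.69%, 40.05% and 29.7% in ΔK9.2, against 47.9%, 73.3% and 71.1% in E14Tg2a. On day 6 the share was between 1.90% and 8.41% in the libraries of the 3 lines. All ΔK9.2 libraries lay below the wild type on day 8, whereas 1 ΔK9.1 library lay within its range. Zeb2 took between 48.8% and 62.5% of the summed Zeb1 and Zeb2 TPM in ΔK9.1, between 56.1% and 60.1% in ΔK9.2 and between 49.5% and 57.9% in E14Tg2a on day 8.

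The 2 clones were also set against each other. No member had an adjusted p below 0.05 on any day in limma. For Cdh2 the difference of ΔK9.2 from ΔK9.1 was 0.60 ± 0.52 (SE) on day 6, adjusted p = 1.0, where the ΔK9.1 libraries themselves held 75.3 and 15.01 TPM. For Snai2 on day 8 it was -0.66 ± 0.48, adjusted p = 0.908.

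The other genes of the pathway were read from lists of epithelial partners (junction, polarity and keratin genes; 33 of 34 in the table), mesenchymal partners (matrix, contractile and receptor genes and transcription factors; 29 of 30), EMT signals (17 of 17), transcription factors of the primitive streak (7 of 7), catenins (8 of 8) and other classical cadherins (5 of 5). In E14Tg2a on day 4, 14 epithelial partners were called higher and 1 lower, while 1 mesenchymal partner was called lower and none higher, against 3.67% of all genes higher and 4.07% lower. The other 18 of 33 epithelial partners were not called, and the list had a median of 0.73 on the log2 scale against -0.07 over all genes. The extra-embryonic endoderm, itself an epithelial tissue, moved further in the same libraries, with 6 of its 12 markers called higher at a median of 2.01. Its part in the day 4 levels of Cdh1, Epcam and Esrp1 was not tested. On day 6 all 7 streak factors were called higher, at a median of 5.18, together with 17 mesenchymal partners and 8 signals, against 8.95% of all genes called higher. On the same day 12 of 33 epithelial partners were also called higher, the list having a median of 0.26. Called lower were 4 epithelial partners, 1 mesenchymal partner and 1 signal, against 8.69% of all genes.

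By day 8, when 15.9% of all genes were called higher and 26.9% in either direction, 26 mesenchymal partners were called higher and 1 lower (Snai3), at a median of 2.72 against 0.05 over all genes. The largest changes were those of Acta2, smooth muscle actin (log2 fold change 7.34 ± 0.60 (SE), adjusted p = 1.87e-10), and of the fibrillar collagens Col1a1, Col3a1 and Col1a2, at 6.98, 6.49 and 6.14. Between day 4 and day 6, 7 epithelial partners were called lower and 4 higher, at a median of -0.63 against 0.06 over all genes. For that step 9.33% of all genes were called in either direction. Against day 0, 13 were called higher by day 8 and 4 lower, among them Grhl3, Cldn4 and Pkp3, and the rises included those of the simple-epithelium keratins Krt18 (log2 fold change 5.46 ± 0.44 (SE), adjusted p = 1.7e-10), Krt8 at 5.31 and Krt19 at 3.02. Markers of other cell types rose over the same days, 9 of 12 of the extra-embryonic endoderm at a median of 3.04 and 9 of 10 of mesoderm at a median of 3.42. Their part in the levels of keratins, collagens and Acta2 was not tested.

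Of the signals, 11 were called higher on day 8 and 1 lower (Nodal). Tgfb2 and Tgfb1, ligands known to bring on EMT, rose by 5.04 and 3.65 on the log2 scale, Hmga2, a chromatin protein acting below them, by 4.64, and Fgf8, a growth factor of the streak, by 3.69 after 6.53 on day 6. The streak factors had passed their height by then. T (Brachyury) was 7.10 above day 0 on day 6 and 2.39 on day 8, and Mixl1 and Mesp1 went from 6.10 to 2.02 and from 5.49 to 2.21. Snai1 also had its highest mean on day 6 in E14Tg2a, although its levels on days 6 and 8 were not called apart. In the clones Snai1 had its highest mean on day 8. In ΔK9.1 this order rests on replicate 3. Without that replicate on days 6 and 8, Snai1 stood 2.96 above day 0 on day 6 and 2.78 on day 8. T was further above day 0 on day 6 than on day 8 in both clones, at 6.23 and 4.98 in ΔK9.1 and 7.25 and 5.49 in ΔK9.2. Mixl1 did the same, whereas Mesp1 stood at 3.38 and 3.40 in ΔK9.1 and 4.24 and 4.55 in ΔK9.2, and Fgf8 was likewise no lower on day 8. Among the cadherins Cdh11 rose by 5.29, Cdh5 of endothelium by 3.63 and Cdh6 by 2.40. Of the catenins 1 of 8 was called, below the share of all genes, and this was Ctnnd2 (log2 fold change 1.06 ± 0.25 (SE), adjusted p = 0.000859), and the list had a median of 0.50.

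**Figure D4:**
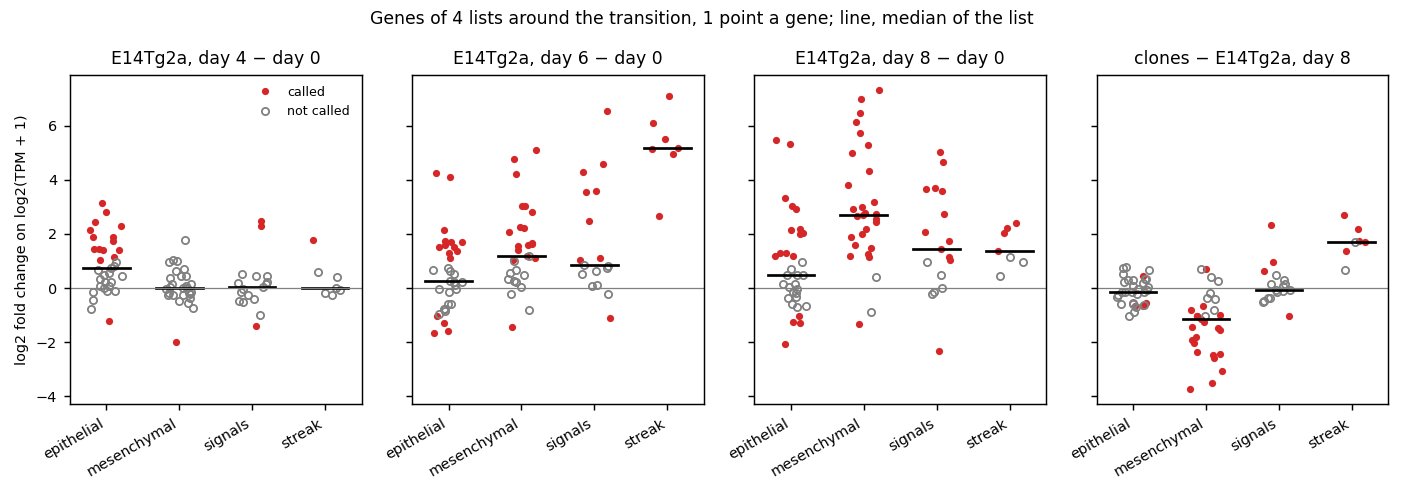
Log2 fold changes on log2(TPM + 1) of the genes of 4 lists (33 epithelial, 29 mesenchymal, 17 signal and 7 streak genes; 1 point per gene; red, called; lines, list medians) in E14Tg2a on days 4, 6 and 8 against day 0 and in the clones against E14Tg2a on day 8. Streak factors stood highest on day 6 with a median of 5.18, mesenchymal partners on day 8 with 2.72, and in the clones on day 8 the mesenchymal median was -1.14 and the streak median 1.72.

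Between clones and wild type on day 8, 20 of 29 mesenchymal partners were called lower and 1 higher, with a median of -1.14 against -0.00351 over all genes, in the same direction as Vim and Snai2. Among the collagens Col1a1 (log2 fold change -3.05 ± 0.37 (SE), adjusted p = 5.18e-06) and Col1a2 at -3.73 were lower, as was Acta2 at -2.57. The streak factors went the other way, 5 of 7 being called higher and none lower, among them T (log2 fold change 2.70 ± 0.70 (SE), adjusted p = 0.00758), with Fgf8 (log2 fold change 2.33 ± 0.48 (SE), adjusted p = 0.0014). Of the epithelial partners 1 was called higher and 4 lower, of the signals 3 higher and 1 lower, of the cadherins 1 higher and 3 lower, and of the catenins 1 lower, of 33, 17, 5 and 8 genes. For the epithelial partners and the signals this is near the 18.7% of all genes called on that day. For the rise from day 0 to day 8, 12 mesenchymal partners were called with a smaller rise in the clones and none with a larger one, against 3.05% of all genes. No streak factor was called in that test (T at 2.85, adjusted p = 0.0815), while Fgf8 was (adjusted p = 0.0426).

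On day 6, 7 of 29 mesenchymal partners, 1 of 33 epithelial partners and 1 of 17 signals were called lower in the clones and none higher, against 3.82% of all genes, and no streak factor was called, at a median of -0.96. On day 4 the calls were 3 lower mesenchymal partners, 1 lower epithelial partner and 1 lower catenin, against 2.80% of all genes, to which 1 of 33 epithelial partners is close. On day 0, against 5.41% of all genes, there were 1 lower epithelial and 1 lower and 1 higher mesenchymal partner.

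Markers of other cell types moved with these differences. On day 8 the 12 extra-embryonic endoderm markers summed to between 392 and 560 TPM in E14Tg2a and between 40.2 and 152 TPM in the clones, with 8 of 12 called lower, the 10 mesoderm markers to between 747 and 1008 TPM against 147 to 662 TPM, with 6 lower, and the 8 pluripotency markers to between 390.1 and 492 TPM against 719 and 1627 TPM, with 6 higher and 1 lower. The neural markers overlapped, at 30.7 to 57.8 TPM against 36.3 to 55.6 TPM, with 2 of the 6 tested called lower at a list median of 0.34 on the log2 scale. On that day 18.7% of all genes were called in either direction. On day 6 the endoderm sum was 139 to 282 TPM in E14Tg2a and 14.4 to 48.8 TPM in the clones, with 3 of 12 lower, and the mesoderm sum 147 to 297 TPM against 29.96 to 85.02 TPM, with 4 of 10 lower, against 3.82% of all genes called. The part of these cells in the levels of Vim, Snai2 and the collagens was not tested.

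The E-box letters of the Epcam and Snai1 promoters were looked for in the lists as well. Of 22 epithelial partners with a promoter entry 15 held at least 1 within 250 bases before a start, 68.2%, against 19.4% of all 27025 genes. Lsr and Ap1m2 held 4 each, and Krt8 and Krt18, which rose, held 1 each. None of 16 mesenchymal partners and none of 11 signals held one, and of 6 streak factors 2 did (T and Mesp1).

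Across the 12 group means on log2(TPM + 1), Cdh2 went most closely with Snai1 among the members (Pearson r = 0.97), Zeb2 with Twist1 (r = 0.97) and Epcam with Esrp1 (r = 0.84). Cdh1 had its lowest value with Snai2 (r = -0.94) and a weaker one with Cdh2 (r = -0.71), whose level was already high on day 6. Epcam had its lowest with Zeb1 (r = -0.89). The groups share lines and the order of days, so these values describe courses in 12 points that are not independent.

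Of 9041 genes whose group means ranged over more than 1 log2 unit, those most like Cdh1 were Gldc (r = 0.976), Foxr2 (0.976), Utf1 (0.973), Mt3 (0.973) and Mt2 (0.972). Cdh2 was followed most closely by Cplx2 (r = 0.995), Frzb (0.992), Prtg (0.992), Abracl (0.991) and Ptk7 (0.991), and Snai1 by Chst2 (r = 0.996), Aplnr (0.993), Rspo3 (0.988), Klhl6 (0.987) and Six2 (0.985). For Vim they were Atp8b2 (r = 0.990), Ccdc157 (0.987), Rtn4 (0.985), Sav1 (0.985) and Zfp865 (0.984). None of these 20 genes is among the 10 members.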

How the data were processed

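Poly-A RNA was sequenced with stranded paired-end libraries. According to the study's methods, the authors used STAR for alignment to mm10 and RSEM for quantification, dropped libraries that a principal component analysis placed far from the rest, and deposited TPM per gene and library. Tool versions and the gene annotation are not given in the sources used here. TPM are scaled within a library and keep no depth, so precision was taken from replicates. The deposited table also holds log2 fold changes and FDR values from the authors' DESeq2 tests, which were not used.

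Libraries were mapped by column name to 12 groups. TPM were transformed as log2(TPM + 1) and tested with limma 3.58.1 (R 4.3.3) with a trended variance. One fit of all 33 libraries gave the comparisons between days, between lines on days 4, 6 and 8, and the difference in rise, and 1 fit of the 9 undifferentiated libraries gave day 0, on genes with a mean of 1 TPM in at least 1 line. P-values were adjusted by Benjamini-Hochberg over all genes tested. A gene was called at adjusted p < 0.05 where its log2 fold change also exceeded, in size, 1 (days, difference in rise) or 0.3 (lines). Clone effects are the mean of both clones. The cadherin switch was tested with 2-sided exact permutations. The script was tested on simulated data. Promoters came from RefSeq (GRCm38.p6) and positions from GENCODE M21.

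The named genes are the 10 members, Nanog, up to 4 called genes with the largest change by day 8 in E14Tg2a from each list, and the 5 genes most like Cdh1, Cdh2, Vim and Snai1 over the group means. Other genes named beside a count (Snai3, Grhl3, Cldn4, Pkp3, Nodal, Lsr and Ap1m2) were chosen after their values were seen. Members and lists were chosen with earlier results of these data known. Some genes of the lists are not reported or not analysed here.

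The study's methods describe 3 assays differentiated in parallel. Libraries of the same number and day in different lines deviated together (median r = 0.222 over 33 pairs, 31 of them over 0.1, lowest -0.0129), those of different numbers did not (median -0.127 over 60 pairs), so the assay number was used as a block in an alternative fit. The remaining alternatives were a block within the day, a pseudocount of 0.1 or, for the switch, none, a minimum of 5 TPM or, on day 0, none, median ratio scaling, fits of only the groups compared, all 33 libraries in the day 0 fit, a log2 threshold of 1 between lines, leaving out each library in turn, and leaving out replicate 3 of ΔK9.1 on days 6 and 8.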

Additional observations from a re-analysis of the deposited data

Results flagged for a closer look

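The rise of Snai2, the Snail factor that followed Snai1 in E14Tg2a, was the 1 value among the 10 genes for which the course itself was found to differ between wild type and clones. The difference in rise from day 0 to day 8 was -2.14 on log2(TPM + 1) (limma, adjusted p = 0.0296), with a rise of 4.84 for E14Tg2a against 2.99 for ΔK9.1 and 2.42 for ΔK9.2. Both clones use the same E14Tg2a libraries as their reference. Snai2 was below 1 TPM in all day 0 libraries, and without E14Tg2a replicate 2 of day 8, its highest library at 67.3 TPM, the difference was -1.77 (adjusted p = 0.145). With replicate 3 of ΔK9.1 left out on days 6 and 8 it was -1.83 (adjusted p = 0.0431). Groups of 2 or 3 libraries were too small for a test of single outlying samples.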

How the results depend on the processing

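The falls and rises between day 0 and day 8 were stable in count, while the comparisons of clones with wild type changed with the fit. Fitting only the groups compared gave 3 called members for ΔK9.1 from day 0 to day 6, 1 for E14Tg2a from day 6 to day 8, and 0 for the clones on day 6, on day 8 and for the difference in rise. On day 0 the clones held 0 calls with all 33 libraries in the fit and 0 at a log2 threshold of 1. On day 4 they held 1 call with a pseudocount of 0.1, 1 with a minimum of 5 TPM, 1 with the replicate block and 2 with a replicate block within the day, and on day 6 they held 2 and 3 under these blocks. The difference in rise held 0 calls with a pseudocount of 0.1. The replicate block changed no other count of calls by over 1.5 times. Leaving out 1 library at a time gave 3 to 6 calls for ΔK9.1 from day 0 to day 6, 1 to 4 for E14Tg2a from day 6 to day 8, 0 to 3 for the clones on day 0, 0 to 1 on day 4, 0 to 3 on day 6, 1 to 2 on day 8 and 0 to 2 for the difference in rise. The cause of these changes was not tested.

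The cadherin switch of the clones on day 4 differed by 0.78 with the replicate block (exact permutation p = 0.0741), and by 0.69 to 0.91 without 1 library, where the 2 against 6 libraries left without an E14Tg2a library cannot pass (smallest exact p = 0.0714). Its fall from day 0 to day 8 depended on the pseudocount, at -7.58 with 0.1 and -7.77 with none in E14Tg2a and at -7.22 and -7.37 in ΔK9.2, since Cdh2 was near 1 TPM on day 0. Of 2037 log2 fold changes of the members under the alternatives, 1937 kept their side of the threshold, 67 lost a call and 33 gained one. The sign differed from the reported one in 72 of them, none called, all of results within 0.31 of 0. The switch difference on day 8 turned from 0.34 to -0.06 without replicate 3 of ΔK9.1, and that of Cdh1 in rise from 0.09 to -0.11. TPM keep no depth, so changes in genes near 1 TPM, such as Snai2 and Zeb2 on day 0, could not be set against counting error. Alternatives that left out replicate 3 of ΔK9.1 on days 6 and 8 or compared the clones with each other were chosen after seeing the data.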
